A study of Rattus norvegicus with 21 samples.

Results

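Sorted spinal cord microglia from rats given vancomycin (VANCO) into the trachea were compared with those from rats given PBS, the buffer control. The comparison takes every library of these groups, 4 VANCO and 4 PBS, which is 8 of the 21 libraries in the series. In each group the replicates carry the numbers 1, 2, 3 and 5, and equal numbers were paired. The rats were LEW/Crl animals of wild type, 6 to 8 weeks old, and each had been dosed through the trachea for 7 days. The study asked how antibiotics given in this way affect the central nervous system.

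The other libraries served as references: 4 microglia libraries from rats given neomycin (NEO), and 9 of total spinal cord, 3 for each of PBS, NEO and VANCO. Cord tissue was homogenised and myelin was removed on a Percoll gradient. The total cord libraries came from that pellet, and the microglia libraries from CD45low CD11b+ cells sorted from such material. The labels do not say whether a library came from 1 animal or a pool, or what the replicate number stands for, so p-values measure only the spread between these samples. A bulk library cannot tell fewer cells of a type from less RNA per cell.

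Microglia are the resident macrophages of the brain and spinal cord. They survey the tissue, clear debris and respond to injury and to signals from the periphery, including products of commensal bacteria. Vancomycin is a glycopeptide that blocks cell wall synthesis and acts on Gram-positive bacteria. Neomycin is an aminoglycoside that blocks bacterial protein synthesis and acts mainly on Gram-negative bacteria.

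The deposited tables identify genes by rat Ensembl IDs alone, and 0 of the 32883 IDs matched the gene tables used here. Genes are therefore described in groups and only 4 are printed, by ID. Microglia markers could not be looked up, so the cell type label was not checked. In place of marker lists, genes were classed by where their RNA was found. A gene was cord-biased where its median in the 9 cord libraries was at least 8-fold its median in the 4 NEO microglia libraries, and microglia-biased in the reverse case. The PBS and VANCO microglia libraries took no part in this classing.

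The 8 libraries held 9020480 to 22435887 counts, and 15914 to 18857 genes had a count in each. No 2 libraries within the PBS group or within the VANCO group were alike to within sampling noise. Among the microglia libraries 2 stood apart. In NEO replicate 2, cord-biased genes made up 4.52% of counts, against 0.445 to 1.13% in the 8 compared libraries. In PBS replicate 5, 67 genes lay at least 8-fold under each of the other 3 PBS libraries. The counts of genes called between VANCO and PBS are given with and without each of them.

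With the 12 microglia libraries in 1 model and the replicate number as a block, edgeR called 0 of 12570 genes (0%) at an adjusted p of 0.05. The lowest adjusted p was 0.105, shared by 6 genes. At an unadjusted p under 0.05 there were 365 genes, 2.90% of those tested, of which 140 were higher after vancomycin (1.11%) and 225 lower (1.79%). That share is smaller than the 0.05 that this limit passes where no gene differs, so the list is a description. Without NEO replicate 2 the split was 532 higher and 514 lower. Limma-voom called 0 genes, and DESeq2 called 38, of which 33 were lower (0.263%) and 5 higher (0.0398%). Without the block edgeR also called 0, with 108 genes at an unadjusted p under 0.05, and DESeq2 called 5.

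The edgeR count of 0 changed when NEO replicate 2 was left out. That library is in neither compared group. It takes part in the estimate of the spread, in the block term of replicate 2 and in the filter on low counts. Without that library edgeR called 36 of 12804 genes, 28 lower (0.219%) and 8 higher (0.0625%). Other models that also lack it gave fewer. With the 8 compared libraries alone edgeR called 4, 2 higher and 2 lower, and without every library of replicate 2 it called 0. The common biological coefficient of variation is the typical spread of a gene between libraries, here the part left after the block. It was 13.7% with NEO replicate 2 and 7.74% without it. In the 12 libraries fitted without the block it was 33.3%. The count was 41, all lower, when all 21 libraries were modelled together, and 7, all lower, without PBS replicate 2. Without PBS replicate 5, the other library that stood apart, it remained 0.

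Genes called in the model without NEO replicate 2 fell into unlike groups. Of the 28 lower genes 26 were cord-biased and 21 belonged to the 67 genes low in PBS replicate 5. Their median log2 fold change was -4.04, and 19 were lower in 4 of 4 pairs. Of the 8 higher genes 6 were microglia-biased and 0 were cord-biased. In the model of 12 libraries 956 of 12570 tested genes were cord-biased (7.61%) and 943 microglia-biased. The 0 of 8 is thus near the cord-biased share of all genes. Each of the 8 was higher in 4 of 4 pairs, with log2 fold changes from 0.26 to 0.60. Of the 12570 genes 8.81% were higher in 4 of 4 pairs and 7.44% lower. The lower group was thus mostly large differences in genes found chiefly in cord, and the higher group mostly small differences in genes found chiefly in microglia.

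DESeq2 on all 12 libraries gave lower genes of the same kind. Of its 33 lower genes 32 were cord-biased and 27 were among the 67, which is 81.8% of the lower genes and 40.3% of the 67. In PBS replicate 5, 21 of the 33 had 3 counts or fewer. Its 5 higher genes were each higher in 4 of 4 pairs, by 0.24 to 0.95 on the log2 scale. Of these 5, 0 were cord-biased, which is near the 7.61% of all tested genes. The count of 38 rested on single libraries. Leaving out PBS replicate 1 or 3 gave 11 or 9 genes, and leaving out VANCO replicate 1, 2 or 3 gave 14, 13 or 11. Leaving out PBS replicate 5 gave 70, VANCO replicate 5 gave 73 and NEO replicate 2 gave 79. With the 67 genes removed from the model it was 9 (4 higher, 5 lower).

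In the fit with the replicate block most genes were measured closely enough to bound the difference. The bounds here and below depend on the block and were not counted without it. The common biological coefficient of variation was 13.7% with the block and 33.3% without it. The median log2 fold change over all tested genes was 0.01, with quartiles of -0.07 and 0.08 and a median standard error of 0.12. For 10911 genes (86.8%) the 95% interval of the difference lay within 2-fold in either direction, and for 9265 (73.7%) within 1.5-fold. At least 2-fold higher values were seen in 18 genes and at least 2-fold lower ones in 245, and 59 of the 245 were among the 67. No gene was 8-fold higher, while 55 were at least 8-fold lower, 39 of them among the 67.

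Scarce genes were measured less precisely than the rest. Expressed as CPM, a gene's counts scaled to a common library total, 6350 genes had a mean of 10 to 100. In these the median standard error was 0.10, and the interval lay within 1.5-fold for 95.1%. Among the 1963 genes at 100 to 1000 CPM it did so for 97.6%, and among the 98 above 1000 CPM for 94.9%, with a median standard error of 0.11. For the 776 genes under 1 CPM the median standard error was 0.46, and the interval lay within 1.5-fold for 0% and within 2-fold for 13.8%. The large differences sat mostly in scarce genes: 57 of the 61 tested members of the 67 had a mean under 10 CPM.

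The 100 most abundant genes, which made up 25.9 to 33.9% of each library's counts, differed little between the groups. Their log2 fold changes ran from -0.65 to 0.51. For 94 of them the interval lay within 1.5-fold and for 96 within 2-fold, and 0 had an unadjusted p under 0.05. Differences in the most abundant transcripts were thus bounded more tightly than those in scarce ones.

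**Figure D1:**
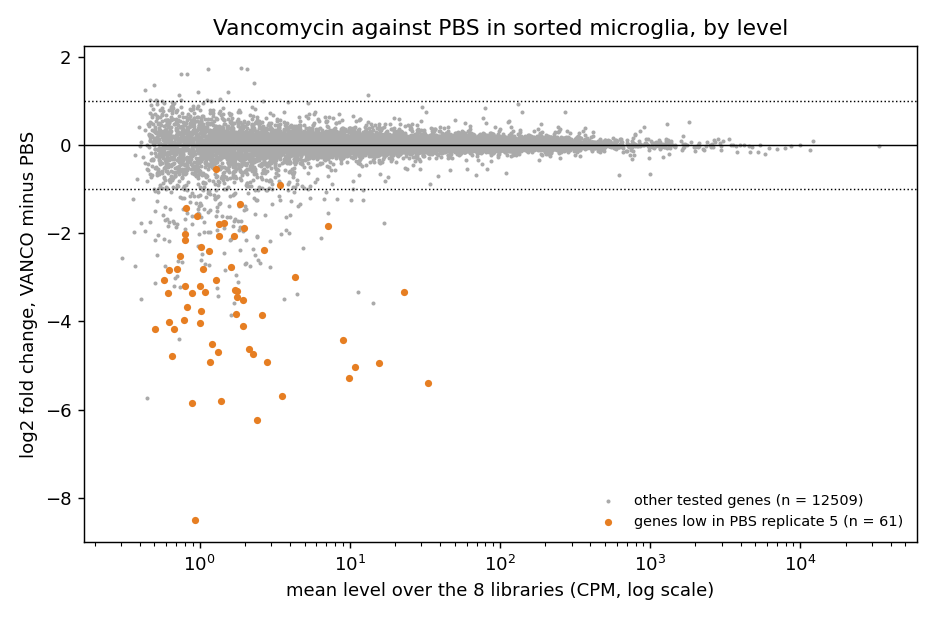
Each point is a gene, with its mean level over the 8 libraries on a log axis (CPM) and its log2 fold change, VANCO minus PBS, and dotted lines mark 2-fold. Orange points are the 61 tested members of the 67 genes low in PBS replicate 5, which lie below 0 and mostly under 10 CPM; the lowest point has 0 counts in each VANCO library, so its fitted value is no measure of size.

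Agreement between pairs was counted next, on log2 CPM. Of the 12570 genes 1108 were higher after vancomycin in 4 of 4 pairs (8.81%) and 935 lower (7.44%). The groups did not overlap, with every VANCO library above every PBS library, in 73 genes (0.581%), and in the reverse direction in 77 (0.613%). The 140 higher genes at an unadjusted p under 0.05 had a median log2 fold change of 0.32, 7 reached 2-fold and 122 were higher in 4 of 4 pairs. The 225 lower genes had a median of -1.73, 138 reached 2-fold and 161 were lower in 4 of 4 pairs. The p rests on the same pairs, so agreement between pairs in these lists largely follows from the choice.

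The lower genes were more numerous than the higher ones in this model, and their differences were larger. By origin, 28 of the 140 higher genes were microglia-biased and 0 cord-biased, whereas 149 of the 225 lower genes were cord-biased and 8 microglia-biased. Among all tested genes 956 were cord-biased (7.61%) and 943 microglia-biased.

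The excess of lower genes depended on the libraries in the model, and so did the share of them that was cord-biased, 66.2% in the model of 12 libraries. Without NEO replicate 2 there were 1046 genes at an unadjusted p under 0.05, 532 higher and 514 lower. With the 8 compared libraries alone there were 875, 448 higher and 427 lower, and without VANCO replicate 2 there were 615, 375 higher and 240 lower. Of the lower genes in these 3 models 235, 148 and 107 were cord-biased, which is 45.7, 34.7 and 44.6% of them, and of the higher genes 2, 4 and 3. The median of the lower genes was -0.57, -0.31 and -0.88, and that of the higher genes 0.20, 0.22 and 0.31.

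The printed genes were chosen after their values were seen, as those with the smallest unadjusted edgeR p in each direction among genes that pointed that way in 4 of 4 pairs. ENSRNOG00000015906 is a microglia-biased gene. It had 38.1, 26.3, 34.8 and 34.7 CPM in PBS replicates 1, 2, 3 and 5, and 51.3, 37.1, 47.0 and 41.3 CPM in VANCO. Each VANCO library lay above the PBS library of its number, and the groups separated after TMM scaling, though in plain CPM VANCO replicate 2 lay just under PBS replicate 1. The mean was 44.2 ± 6.27 CPM in VANCO and 33.5 ± 5.06 CPM in PBS (SD, n = 4).

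The log2 fold change of ENSRNOG00000015906 was 0.40 (SE 0.07), with an edgeR adjusted p of 0.172 and a DESeq2 adjusted p of 0.00242. Without NEO replicate 2 the edgeR adjusted p was 0.0160. Over all the settings tried, DESeq2 included, the adjusted p lay between 0.00242 (DESeq2) and 1. In NEO the gene had 69.4, 50.5, 58.0 and 54.2 CPM, above every VANCO and PBS library apart from NEO replicate 2, which lay under VANCO replicate 1. The difference of NEO from PBS was 0.80 (edgeR adjusted p 0.00145). In total cord the VANCO difference was -0.01, at 3.70 ± 0.730 CPM in VANCO and 3.71 ± 0.550 CPM in PBS (SD, n = 3).

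ENSRNOG00000056714, also microglia-biased, is more abundant. It had 140, 179, 160 and 165 CPM in PBS replicates 1, 2, 3 and 5, and 160, 218, 208 and 210 CPM in VANCO. VANCO replicates 2, 3 and 5 exceeded every PBS library, and VANCO replicate 1 fell inside the PBS range while exceeding PBS replicate 1. The log2 fold change was 0.30 (SE 0.06), with an edgeR adjusted p of 0.350 and a DESeq2 adjusted p of 0.000214. Without NEO replicate 2 the edgeR adjusted p was 0.0198. Over all the settings tried, DESeq2 included, the adjusted p lay between 0.000214 (DESeq2) and 1. Its NEO difference from PBS was 0.43 (edgeR adjusted p 0.0127), and its VANCO difference in total cord was 0.05.

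ENSRNOG00000058470 is cord-biased, at 33.1 ± 12.3 CPM in total cord from PBS rats (SD, n = 3). In microglia it had 4.91, 6.21, 3.60 and 0.535 CPM in PBS replicates 1, 2, 3 and 5, from 55, 56, 63 and 12 counts. In VANCO it had 0.266, 0.392, 0.191 and 0.136 CPM, from 4, 6, 4 and 2 counts. The groups did not overlap, but PBS replicate 5 lay much nearer the VANCO libraries than the other PBS libraries.

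The log2 fold change of ENSRNOG00000058470 was -3.86 (SE 0.56), with an edgeR adjusted p of 0.105 and a DESeq2 adjusted p of 5.26e-06. Without NEO replicate 2 the edgeR adjusted p was 0.000840. Over the settings that tested the gene, DESeq2 included, the adjusted p lay between 5.26e-06 (DESeq2) and 1. The fit with only the compared groups did not test it. By pair the difference was -3.69, -3.67, -3.56 and -1.33 for replicates 1, 2, 3 and 5. In total cord from VANCO rats the gene stood at 32.2 ± 15.5 CPM (SD, n = 3), a log2 difference of -0.06. In microglia its NEO difference from the same PBS libraries was -2.38 (edgeR adjusted p 0.0494).

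ENSRNOG00000003221, the other lower gene, is cord-biased and one of the 67. It had 2.77, 6.32, 1.32 and 0.0891 CPM in PBS replicates 1, 2, 3 and 5. In VANCO it had 0.0666, 0.457, 0.0478 and 0 CPM, which is 9 counts over the 4 libraries. Here the groups overlapped, since PBS replicate 5 lay under VANCO replicate 2. The log2 fold change was -4.52 (SE 0.72), with an edgeR adjusted p of 0.105 and a DESeq2 adjusted p of 6.14e-05. Without PBS replicate 2 the edgeR adjusted p was 0.0392 and without NEO replicate 2 it was 0.00135. Over the settings that tested the gene, DESeq2 included, the adjusted p lay between 6.14e-05 (DESeq2) and 1. The fit with only the compared groups did not test it. In microglia its NEO difference from the same PBS libraries was -2.33 (edgeR adjusted p 0.0833).

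**Figure D2:**
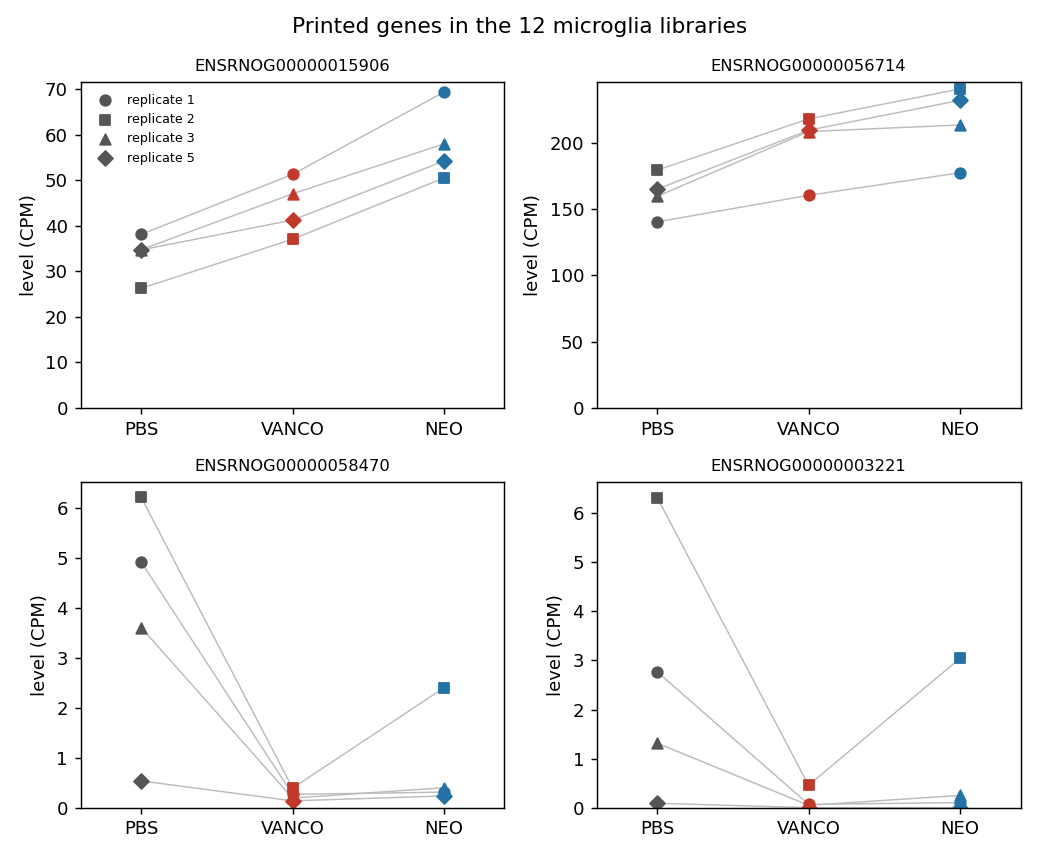
Level in CPM of the 4 printed genes in each microglia library, with grey lines joining libraries of equal replicate number. The upper genes are higher in VANCO than in PBS along each line, by less than 2-fold, and in the lower genes PBS replicate 5 lies close to the VANCO libraries.

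Most genes that DESeq2 called lower were low in PBS replicate 5, so that library was examined across all genes. Of the 225 lower genes at an unadjusted edgeR p under 0.05, 55 were among the 67 and 170 were not. Without PBS replicate 5 there were 222 lower genes at that level. The 67 genes were chosen on the PBS libraries alone: each had at least 1 CPM in replicates 1, 2 and 3 and at least 8-fold its level in replicate 5, with 3 counts as the floor. The last gene inside the limit stood at 8.13-fold and the next outside it at 7.73-fold, the median was 12.8-fold and the highest 609-fold. The same rule found 15 genes low in PBS replicate 2 and 0 low in any other PBS or VANCO library. Since the choice makes the PBS mean high, the values of the 67 are a description with no test.

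Summed over the 67 genes, the level was 576, 647 and 410 CPM in PBS replicates 1, 2 and 3 and 9.40 CPM in PBS replicate 5 (95% exact Poisson interval 8.18 to 10.8, which covers counting error only). In VANCO it was 11.6, 77.0, 42.7 and 15.5 CPM in replicates 1, 2, 3 and 5. In NEO it was 402 CPM in replicate 2 and 13.01 to 60.7 CPM in the others. So 4 of the 12 microglia libraries were high, PBS replicates 1, 2 and 3 and NEO replicate 2, and the other 8, PBS replicate 5 among them, lay at 9.40 to 77.0 CPM.

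The same 67 genes were abundant in total cord in every treatment. Their sum there was 8580, 9800 and 4094 CPM in PBS replicates 1, 2 and 3, and 7998, 10285 and 3561 CPM in VANCO. Replicate 3 was the lowest in each treatment, and the groups overlapped. Of the 67, 63 were cord-biased (94.0%), against 7.61% of all genes tested.

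**Figure D3:**
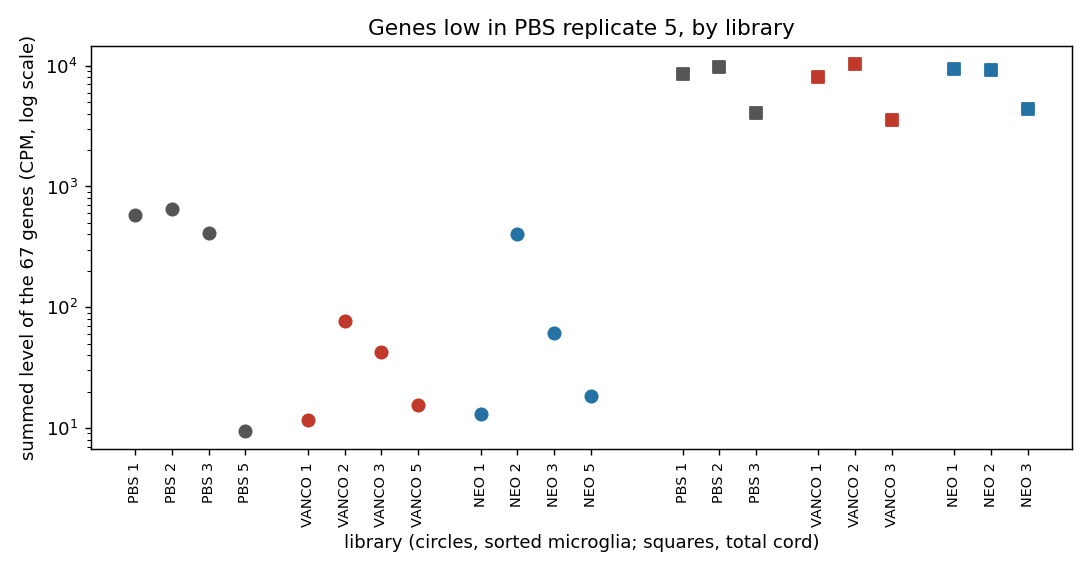
Summed level of the 67 genes in each library, in CPM on a log axis, with circles for sorted microglia and squares for total cord. PBS replicates 1, 2 and 3 and NEO replicate 2 lie at 402 CPM or above, the other 8 microglia libraries at 77.0 CPM or below, and the 9 cord libraries at 3561 CPM or above whatever the treatment.

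In the VANCO comparison 61 of the 67 passed the filter on low counts. Their median log2 fold change was -3.35, and all 61 of those tested were lower, 55 at an unadjusted p under 0.05. As the choice of genes used the PBS libraries, nothing is read from these counts. In NEO, set against the same PBS libraries, the median was -2.32. In total cord the median VANCO difference over the 67 was -0.08, from -0.86 to 0.10.

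The pairs divided in the same way. The median difference of the 61 genes was -3.97, -2.69 and -3.01 in replicates 1, 2 and 3, and 0.01 in replicates 5. PBS replicates 1, 2 and 3 each exceeded every VANCO library in 64 of the 67 genes. PBS replicate 5 exceeded VANCO replicate 5 in 25 and lay under it in 36. The choice of genes set PBS replicates 1, 2 and 3 far above replicate 5, so a smaller difference in pair 5 follows from it. These values by pair are a description, and nothing about the pairs is read from them.

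Levels of the 67 genes were compared between the PBS libraries that held them. Across the 67 genes, which are not independent replicates, log2 levels had r = 0.96 between PBS replicates 1 and 2, 0.88 between 1 and 3 and 0.88 between 2 and 3. The mean of these 3 libraries had r = 0.67 with the mean of total cord from PBS rats and 0.59 with NEO replicate 2. The choice of genes used these 3 libraries, and no other genes were compared in this way. The values are therefore a description, and no profile particular to the 67 is read from them.

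Across all 12570 genes the paired differences of replicates 1, 2 and 3 resembled each other and those of replicates 5 did not. The correlation across genes was 0.43 between pairs 1 and 2, 0.62 between pairs 1 and 3 and 0.39 between pairs 2 and 3. With pair 5 the values were 0.004, -0.002 and -0.01. Leaving out the 67 genes lowered the former to 0.28, 0.48 and 0.24. These are descriptions across genes that share libraries, depth and scaling.

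**Figure D4:**
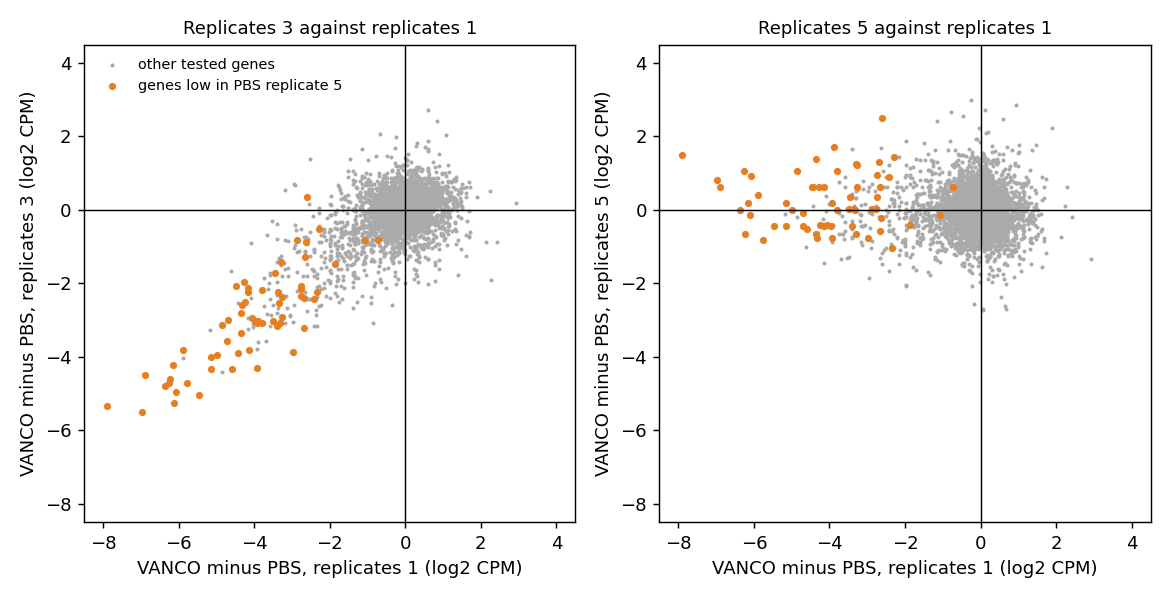
Log2 CPM difference, VANCO minus PBS, of each of the 12570 genes in replicates 3 (left) and replicates 5 (right), against that in replicates 1. The orange genes low in PBS replicate 5 spread along the diagonal on the left and lie about 0 in replicates 5 on the right, with a median of 0.01.

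As a class, cord-biased genes had a negative median difference between VANCO and PBS, also beyond the 67. The genes share the same libraries and are not replicates, so the values over genes are a description. The median log2 fold change of the 956 tested was -0.35, with 21.5% of them positive, against 0.01 over all genes. With the 67 left out, the remaining 897 had a median of -0.29 and 23.0% were positive. At an unadjusted p under 0.05, 95 of the 897 were lower and 0 higher. Of all 12570 tested genes 225 were lower (1.79%) and 140 higher (1.11%). The 943 microglia-biased genes had a median of 0.01, with 55.9% positive, and the 10671 genes in neither class a median of 0.01, with 55.1% positive.

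By pair, the 897 genes had medians of -0.49, -0.10, -0.39 and -0.10 in replicates 1, 2, 3 and 5, so the sign was shared by 4 of 4 pairs, replicates 5 included. The size rested on single libraries. For all cord-biased genes the median was -0.67 without PBS replicate 2, -0.54 without VANCO replicate 5, -0.23 and -0.21 without PBS replicates 3 and 1, and -0.19 without VANCO replicate 2. Without the block it was -0.20, and without PBS replicate 5 it was -0.33.

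The summed share of cord-biased genes gave a single value per library. It was 0.598, 1.13, 0.672 and 0.610% of counts in PBS replicates 1, 2, 3 and 5, and 0.445, 0.974, 0.527 and 0.542% in VANCO. Replicate 2 was the highest in both groups and the groups overlapped, but each VANCO library lay below the PBS library of its number. The difference was -0.131 percentage points (SD of the pair differences 0.0419, n = 4), with a two-sided exact permutation p of 0.125 over the pairs, the smallest that 4 pairs allow.

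Without the 67 genes the difference in the share was -0.0937 points (SD 0.0176, n = 4), lower in 4 of 4 pairs, with the same exact permutation p of 0.125. The share of microglia-biased genes was 31.7 ± 1.94% in PBS and 31.8 ± 1.95% in VANCO (SD, n = 4), with an exact permutation p of 1. It was lower in VANCO in 3 of 4 pairs. Whether the share of cord RNA in a sort had a part in the lower gene counts was not tested.

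**Figure D5:**
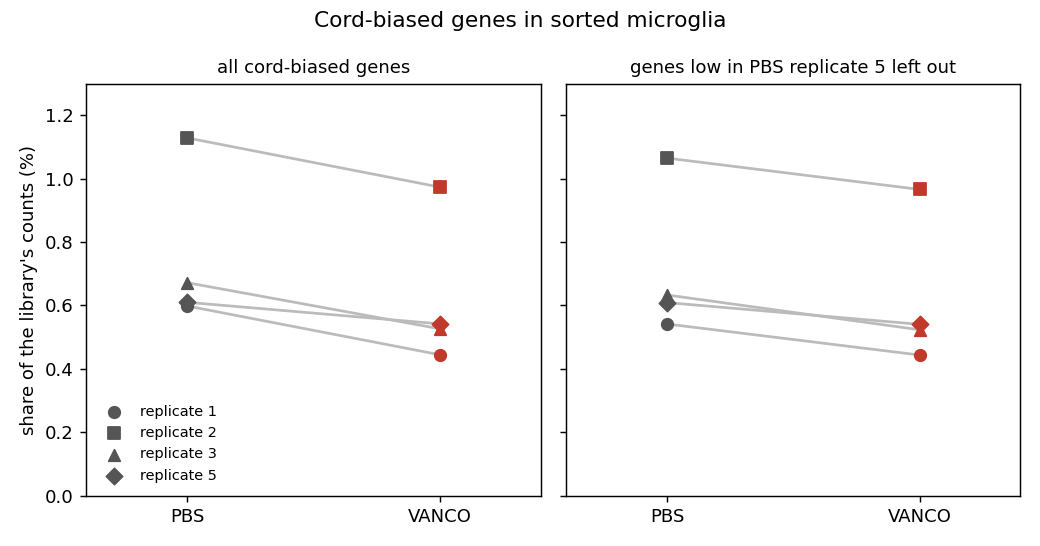
Share of each library's counts from cord-biased genes, in percent, for PBS and VANCO microglia, with all such genes on the left and without the 67 genes on the right. Each line joins libraries of equal number; all 4 lines fall from PBS to VANCO in both panels, with mean differences of -0.131 and -0.0937 percentage points.

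Whether vancomycin and neomycin differed in microglia was tested directly, since their separate comparisons share the PBS libraries. The edgeR test passed 21 genes: in 20 the NEO libraries were the higher (0.159%), in 1 the VANCO libraries. An unadjusted p under 0.05 was reached by 810. For the 20 genes the median log2 difference of NEO from VANCO was 1.10, from 0.62 to 1.95. The median difference of VANCO from PBS in these genes was 0.05, from -0.56 to 1.14, and that of NEO from PBS was 1.12. For 18 of the 20 the interval of the VANCO difference lay within 2-fold, and 2 had an unadjusted p under 0.05 for it. The choice of these genes used the VANCO libraries and favours low values there, so their VANCO differences are a description.

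The 1 gene lower after neomycin had a difference of -0.55 from VANCO, with -0.24 for VANCO and -0.79 for NEO against PBS. None of the 21 belonged to the 67, and 0 were cord-biased. The count was 75 without NEO replicate 2 and 11 or fewer without NEO replicate 3 or 5 or any 1 VANCO library. It was 0 without the block, and DESeq2 called 84.

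Whether the vancomycin difference in microglia departed from that in total cord was tested in a model of all 21 libraries. edgeR called 18 of 15546 genes, each with a lower value in microglia (0.116%), and 636 had an unadjusted p under 0.05. All 18 were cord-biased, 14 were among the 67 and 14 were also lower by DESeq2. In total cord these genes had VANCO differences from -0.28 to 0.16, with a median of -0.04. In microglia the median of the 15 that passed the filter there was -4.75.

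Most genes of this test were thus cord transcripts low in PBS replicate 5 and in the VANCO libraries, with little difference in total cord. Leaving out PBS replicate 2 raised the count to 231, and leaving out PBS replicate 5 raised it to 30. Leaving out PBS replicate 3 lowered it to 10, and leaving out VANCO replicate 1, 2 or 3 lowered it to 7, 4 or 4. Without the block, and by limma-voom, it was 0, and DESeq2 called 68.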

How the data were processed

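The authors deposited raw counts per Ensembl gene ID for 21 RNA-seq libraries. The submitters' processing notes name STAR 2.5.2a, bcl2fastq 2.20.0.422 and featureCounts 1.5.0-p1, with genome build rn6. No source used here gives the annotation release, the strand setting or the handling of multiply aligned reads, so overlapping, antisense and near-identical genes may share counts. The labels name no batch. Groups and replicate numbers came from the sample titles.

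Testing used edgeR 4.0.16 in R 4.3.3 (filterByExpr, TMM, robust quasi-likelihood test, replicate number as a block, Benjamini-Hochberg threshold 0.05) over the 12 microglia libraries, and over all 21 for the test between tissues. The block follows the pairing of equal numbers set for this comparison. Deviations from group means had r from 0.36 to 0.78 between VANCO and PBS libraries of equal number and from -0.54 to 0.19 otherwise. Such deviations sum to 0 within a group, so high values at equal numbers push the other values down. DESeq2 1.42.0, limma 3.58.1 (voom), other scalings, filters, models and left-out libraries were alternatives. Intervals are 95% Wald intervals from the edgeR fit. CPM is counts scaled to a common library total, log2 CPM used a prior count of 2, and bias classes a pseudocount of 0.5 CPM. The edgeR fit of VANCO against PBS was tested on simulated data.

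The comparison, gene classes and tests were chosen with earlier results of these data known. Named genes were to be the 10 per direction with the smallest p in 4 of 4 pairs, those called by DESeq2, and members of fixed pathway and marker lists. All needed gene symbols, so the lists and the marker check were not run, and 2 IDs per direction are printed.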

Additional observations from a re-analysis of the deposited data

Results flagged for a closer look

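A library was marked where its gap to the nearest other, relative to the whole range of its group, passed Dixon's 95% limit. This was done for 8 measures in each of the PBS and VANCO microglia groups. It marked 4 of the 16 combinations, where about 1 in 20 is due to chance for one taken alone; they share libraries and include genes chosen for their values. PBS replicate 2 had 1.13% of counts from cord-biased genes, against 0.598 to 0.672% in the other PBS libraries. VANCO replicate 3 had 20936827 counts in all, against 14706297 to 15319914 in the other VANCO libraries. ENSRNOG00000056714 stood at 160 CPM in VANCO replicate 1, against 208 to 218 CPM in the others. ENSRNOG00000003221 stood at 0.457 CPM in VANCO replicate 2, against 0 to 0.0666 CPM in the others.

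The test of a difference between the vancomycin effects in microglia and total cord called 18 genes, and the test between neomycin and vancomycin in microglia called 21. Each test addresses the difference itself.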

How the results depend on the processing

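The replicate block is the design used; fitted without it, edgeR called 0 genes between VANCO and PBS, 0 between NEO and VANCO and 0 between tissues, and DESeq2 called 5 in place of 38. The printed genes, none called by edgeR, were also not called by it without the block; of their DESeq2 calls only that of ENSRNOG00000058470 held (adjusted p 0.0326), and the other 3 had an adjusted p of 0.9999. The VANCO and PBS count of 0 was 6 with no filter on low counts (all lower), 4 with only the compared groups (2 higher, 2 lower) and 41 with all 21 libraries. It was 0 with limma-voom, RLE or upper quartile factors, a filter of 1 CPM, or the 67 genes left out. Leaving out libraries, singly or all of a number, gave 0 to 36 genes by edgeR and 8 to 84 by DESeq2, and DESeq2 without the 67 genes gave 9. The NEO and VANCO count was 84 by DESeq2, 37 with no filter, and 0 to 75 with libraries left out. The count between tissues was 68 by DESeq2, 0 by limma-voom, and 0 to 231 with libraries left out. The causes of these shifts were not tested.

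The median difference of the 67 genes lay between -4.16 and -2.40 under 23 settings and that of cord-biased genes between -0.67 and -0.19 under 24. The microglia-biased median lay between -0.02 and 0.04. The printed genes kept their direction under each setting that tested them. Depth limits the scarce genes: 3 counts are 0.134 to 0.333 CPM in the compared libraries, and a lower gene near that level has little room to differ. With 4 pairs an exact test over samples cannot pass 0.05. DESeq2 analyses without libraries or without the 67 genes were chosen after the data had been seen.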
